A study of Mus musculus with 4 samples.

Results

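The genes described here are 10 components of the unfolded protein response, chosen by name as the rows of the deposited FPKM table for *Ern1*, *Eif2ak3*, *Atf6*, *Xbp1*, *Atf4*, *Ddit3*, *Hspa5*, *Hsp90b1*, *Dnajb9* and *Edem1*. All 10 were found among the 22095 loci of the table, each as a single row with a successful estimate in every library, and all 10 passed the filter on low values (mean FPKM of at least 1). The 4 libraries were made from polyA RNA of whole retinas at 3 weeks of age. Of these, 2 came from *rd7* mice, an *Nr2e3* mutant listed with the strain name C57BL/6J, and 2 from wild-type C57BL/6J mice. Each library was a pool of 8 retinas (4 animals, 2 of either sex), and n counts pools. FPKM divides the reads of a gene by the length of its transcripts and by the depth of the library, so that levels can be compared between genes. In bulk tissue, fewer cells of a type and less RNA per cell cannot be told apart.

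The unfolded protein response adjusts the endoplasmic reticulum (ER) to its load of newly made membrane and secreted proteins. IRE1 (*Ern1*), PERK (*Eif2ak3*) and ATF6 span the ER membrane and sense misfolded protein in its lumen, and each passes the signal on by its own route: IRE1 splices the *Xbp1* mRNA, PERK phosphorylates eIF2α and so favours translation of ATF4, which induces CHOP (*Ddit3*), and ATF6 is cut in the Golgi to release a transcription factor. Their targets include ER chaperones and the machinery that sends misfolded proteins to the proteasome, called ER-associated degradation (ERAD). Photoreceptors renew their outer segments throughout life and so make large amounts of membrane protein in the ER, and this response is known from several inherited retinal degenerations.

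In *rd7* retinas, the ER chaperone *Hspa5* (BiP, the HSP70 of the ER lumen) had 1.72 times the FPKM of wild-type retinas, and *Xbp1* had 1.54 times. The 3 sensors, *Hsp90b1* and *Dnajb9* were between 1.24 and 1.3 times the wild-type level. *Atf4*, *Ddit3* and *Edem1* were between 0.953 and 1.03 times. By limma on log2(FPKM + 0.1) across 12655 genes (2 against 2 libraries, two-sided, Benjamini-Hochberg adjustment, FDR of 5%), 7 of the 10 members rose in *rd7* and 0 fell, beside a background of 37.6% higher and 8.80% lower among all genes tested (46.4% in either direction). Both *rd7* values lay above both wild-type values for 8 members (57.1% of all genes) and below them for *Atf4* (19.5%), which left *Ddit3* as the only member with overlapping values (76.6% of all genes did not overlap). The median log2 fold change was 0.35 over the 10 genes and 0.15 over all genes tested. That general shift is removed when each library is scaled by its median ratio, and 4 of the 10 genes were then higher (*Hspa5*, *Xbp1*, *Atf6* and *Dnajb9*) and *Atf4* was lower, beside 19.7% higher and 19.6% lower among all genes. With the values corrected for the GC content and length of the exons (GC-length correction, an alternative added after the data were examined), 2 were higher (*Hspa5* and *Xbp1*), beside 12.4% of all genes.

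Of the whole series, the following facts touch these values. The mutated gene *Nr2e3* had an FPKM of 2493 and 1589 in *rd7* and 385 and 394 in wild-type libraries, which counts reads on the gene whether or not the transcript is normal. The libraries held an estimated 3.49e+07 to 3.56e+07 reads, from the lowest FPKM values of genes with a single transcript. Behind each value of the 10 genes lay between 753 (*Edem1*) and 23818 (*Hsp90b1*) estimated reads, a counting error of at most 3.64% of a value. Summed FPKM of cone markers was 2391 to 2478 in *rd7* and 903 to 955 in wild-type (5 of 7 tested were higher), and of 6 rod markers 7716 to 8428 and 10545 to 10756 (3 were lower). Müller cell markers summed to 1299 to 1354 and 1171 to 1202 (4 of 6 higher). Pigment epithelium markers, of a cell that secretes much protein, summed to 55.3 to 59.6 in *rd7* and 21.0 to 33.6 in wild-type libraries (3 of 4 tested of 8 were higher). Microglial markers summed to 16.4 to 19.7 and 13.0 to 13.5 (2 of 5 tested of 7 higher), vessel markers to 32.1 to 46.0 and 26.1 to 28.4 (1 of 4 higher), lens markers to 11.1 to 24.1 and 19.8 to 41.1 (0 of 2 tested of 7), and blood markers to 76.8 to 161 and 235 to 317 (3 of 4 tested of 5 lower). Markers of reactive Müller cells summed to 15.8 and 50.7 in the 2 *rd7* libraries and to 13.3 and 13.8 in wild-type, so *rd7* replicate 2 stood apart (1 of 5 higher). Beside these counts, 37.6% of all genes tested were higher and 8.80% lower. The share of microglial markers called higher was near that of all genes, and those of vessel and reactive Müller cell markers were below it. No marker summed here was at 0 in any library. The part of these cell types in the values below was not tested.

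**Figure D1:**
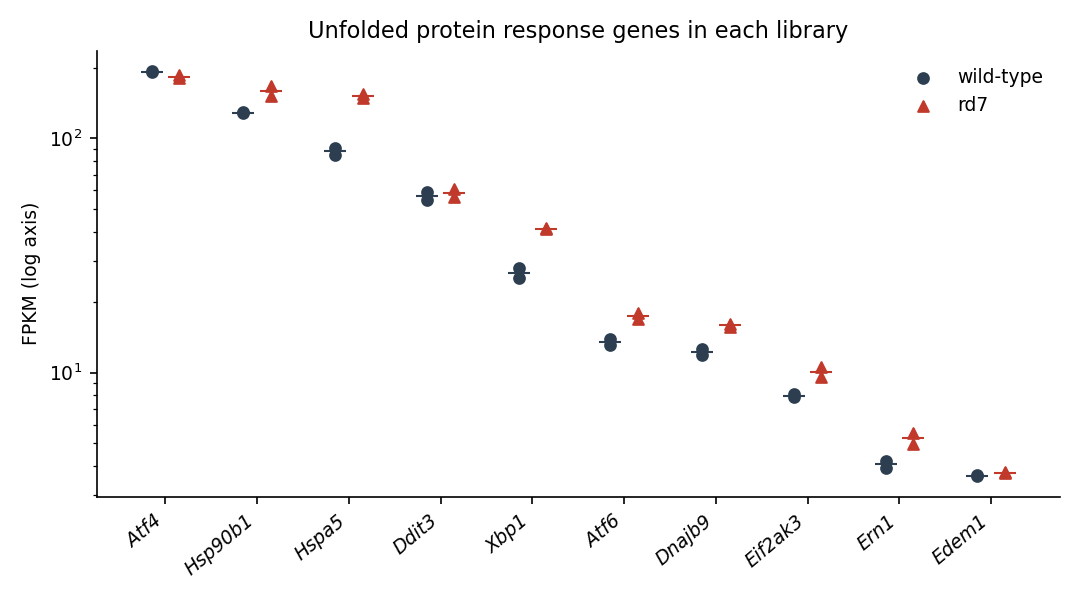
FPKM (log axis) of the 10 genes in each of the 4 libraries, ordered by the wild-type mean; circles are wild-type and triangles *rd7* libraries, and short lines are group means. *Hspa5* lies at 84.7 and 91.0 in wild-type and at 149 and 154 in *rd7* libraries, beside *Hsp90b1* at 152 and 167, while the values of *Ddit3* overlap between genotypes.

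The levels of the 10 genes spanned a wide range, and their order was the same in both genotypes. In wild-type retinas *Atf4* was highest at 193 FPKM, followed by *Hsp90b1* (129), *Hspa5* (87.9), *Ddit3* (56.8), *Xbp1* (26.7), *Atf6* (13.5), *Dnajb9* (12.3), *Eif2ak3* (7.97), *Ern1* (4.06) and *Edem1* (3.63). No neighbours in that order had overlapping values in the 2 wild-type libraries. In *rd7* libraries the only neighbours that overlapped were *Hsp90b1* (152 and 167) and *Hspa5* (149 and 154). Each of the 3 transcription factor mRNAs was thus more abundant than each of the 3 sensor mRNAs in every library.

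Among the sensors, all 3 were higher in *rd7* and by similar amounts. *Ern1* encodes IRE1, the kinase and endoribonuclease, and lies at chr11:106258934-106349110 of mm9. Its FPKM was 4.97 and 5.52 in *rd7* and 4.20 and 3.91 in wild-type libraries, so the groups did not overlap (log2 fold change 0.36, standard error 0.09, adjusted p = 0.0205 from limma). *Eif2ak3*, at chr6:70794521-70855234, encodes the kinase PERK. It had an FPKM of 9.59 and 10.6 in *rd7* and 8.07 and 7.87 in wild-type libraries (log2 fold change 0.33, standard error 0.07, adjusted p = 0.0131 from limma). *Atf6*, at chr1:172634588-172797902, encodes the sensor that is itself a precursor of a transcription factor. Its FPKM was 16.9 and 17.9 in *rd7* and 13.1 and 14.0 in wild-type libraries (log2 fold change 0.36, standard error 0.06, adjusted p = 0.00721 from limma). The *rd7* values lay above the wild-type values for each sensor. The ratio of *Atf6* to *Eif2ak3* FPKM within a library was 1.76 and 1.70 in *rd7* and 1.62 and 1.78 in wild-type retinas. Such a ratio is unchanged by a single scale factor per library, as in median-ratio scaling, but not by the GC-length correction. That of *Ern1* to *Eif2ak3* was 0.519 and 0.523 in *rd7* and 0.521 and 0.497 in wild-type retinas. Both ratios overlapped between genotypes, with a log2 difference of 0.03 each.

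Whether the sensors were called depended on the scaling. Under median-ratio scaling, *Atf6* was still called at 0.21 (adjusted p = 0.0432 from limma), while *Ern1* (0.21, adjusted p = 0.118) and *Eif2ak3* (0.18, adjusted p = 0.0993) were not. With the GC-length correction the log2 fold changes were 0.12, 0.12 and 0.048 for *Ern1*, *Eif2ak3* and *Atf6*, and none was called. Without wild-type replicate 1 none of the sensors was called (log2 fold changes 0.41, 0.35 and 0.31 for *Ern1*, *Eif2ak3* and *Atf6*), and without wild-type replicate 2 *Ern1* (0.31) and *Eif2ak3* (0.31) were not.

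The 3 transcription factors did not move together. *Xbp1*, at chr11:5420970-5425875, encodes the factor downstream of IRE1. It stood at 41.3 and 41.0 FPKM in *rd7* and at 28.0 and 25.5 FPKM in wild-type retinas, a mean of 41.1 ± 0.226 (SD, n = 2) against 26.7 ± 1.77 (SD, n = 2). The groups lay far apart relative to their spread (log2 fold change 0.62, standard error 0.06, 95% interval 0.47 to 0.77, adjusted p = 0.00153 from limma). The call held in all 9 refits with another setting and in the 4 that each left out a library, with log2 fold changes from 0.46 (GC-length correction) to 0.69 (without wild-type replicate 1).

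*Xbp1* mRNA exists in an unspliced and a spliced form, and a gene-level FPKM adds up both. IRE1 removes a segment of 26 bases from the coding sequence, which shifts the reading frame and yields the active factor. The segment is shown because it is the part of the mRNA on which the activity of IRE1 would be read, and FPKM per gene carries no value for it. In the GENCODE annotation of mm9 it is present in 2 annotated forms of the transcript and missing from 1, where the gap is placed at chr11:5424285-5424310, plus strand. The letters gcag stand both just before this gap and at its end, and the letters ca both at its start and just after it. A gap moved upstream or downstream within these repeats leaves the same spliced mRNA. The annotation therefore does not fix where the segment removed by IRE1 begins and ends. The annotated gap is given here in capitals with 12 bases on either side:
Xbp1: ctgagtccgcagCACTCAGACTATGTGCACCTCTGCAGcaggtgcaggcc

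*Atf4* and *Ddit3*, both of the PERK route, were not called. *Atf4*, at chr15:80085614-80087971, had an FPKM of 186 and 181 in *rd7* and 191 and 194 in wild-type libraries. Both *rd7* values lay below both wild-type values by a small margin (log2 fold change -0.07, 95% interval -0.18 to 0.04, adjusted p = 0.257 from limma). It was called lower under median-ratio scaling (-0.22, adjusted p = 0.0136 from limma), and its adjusted p over the 9 refits ranged from 0.0136 to 0.351. *Ddit3*, which encodes the pro-apoptotic factor CHOP, lies at chr10:126727849-126733344. Its FPKM was 56.3 and 61.0 in *rd7* and 59.0 and 54.5 in wild-type libraries, which overlap (log2 fold change 0.05, 95% interval -0.12 to 0.21, adjusted p = 0.588 from limma). Its sign turned under median-ratio scaling (-0.11), quantile normalization (-0.10) and the GC-length correction (-0.068) without a call. Of its 1713 exonic bases, 68 are shared with *Mars* on the opposite strand, and the library protocol as described keeps no strand. ATF4 is mainly controlled by translation, which mRNA levels do not measure.

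Relative to *Atf4* in the same library, *Xbp1* was higher in *rd7* retinas. The ratio was 0.222 and 0.227 in *rd7* and 0.146 and 0.131 in wild-type libraries, 1.62 times as high and without overlap. The ratio of *Xbp1* to *Ddit3* was 0.734 and 0.671 in *rd7* against 0.474 and 0.467, also without overlap. That of *Ddit3* to *Atf4* was 0.302 and 0.338 in *rd7* and 0.308 and 0.282 in wild-type libraries, and these overlapped. The smallest p of an exact permutation test with 2 libraries a group is 0.333, and the ratios are therefore given without a test.

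**Figure D2:**
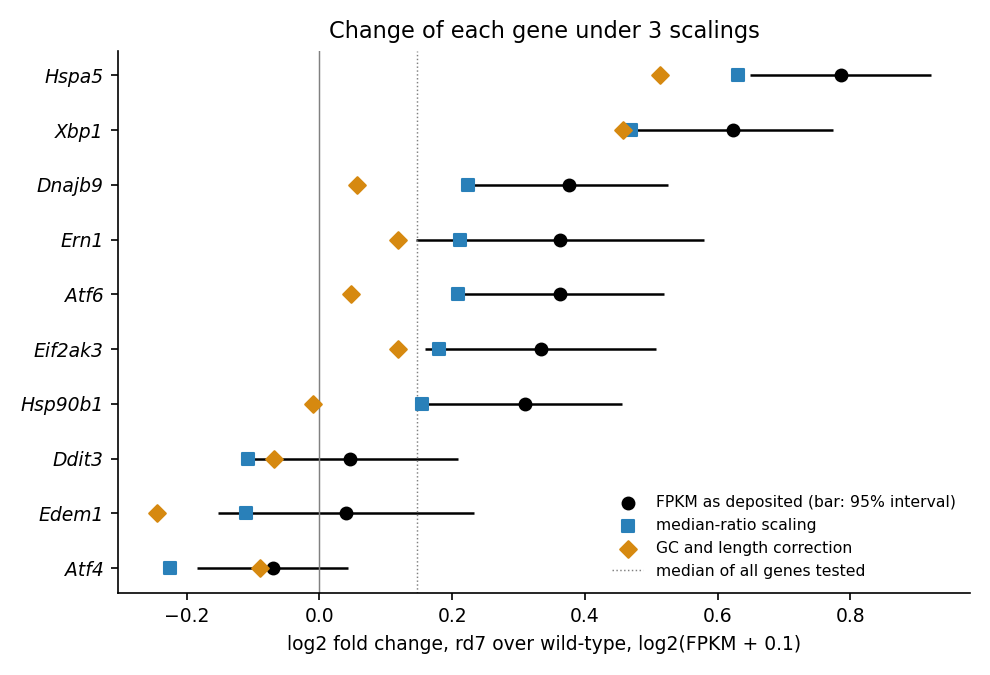
Log2 fold change of each gene, *rd7* over wild-type, on the log2(FPKM + 0.1) scale, with FPKM as deposited (black circles, bars for the 95% interval), under median-ratio scaling (blue squares) and under the GC-length correction (orange diamonds). *Hspa5* (0.79, 0.63 and 0.51) and *Xbp1* (0.62, 0.47 and 0.46) stay to the right of the dotted median of all genes (0.15) under each, while *Hsp90b1* goes from 0.31 to 0.16 and -0.0094.

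Of the 2 abundant chaperones, *Hspa5* rose more. *Hspa5*, at chr2:34627610-34632049, had an FPKM of 149 and 154 in *rd7* and 91.0 and 84.7 in wild-type libraries, a mean of 151 ± 3.53 (SD, n = 2) against 87.9 ± 4.45 (SD, n = 2). The groups lay far apart relative to their spread (log2 fold change 0.79, standard error 0.06, 95% interval 0.65 to 0.92, adjusted p = 0.000787 from limma). As for *Xbp1*, the call held in 9 of 9 refits and without each of the 4 libraries, with values from 0.51 (GC-length correction) to 0.84 (without wild-type replicate 1). *Hsp90b1* (GRP94, the HSP90 of the ER lumen, at chr10:86153586-86168189) had an FPKM of 167 and 152 in *rd7* and 130 and 128 in wild-type libraries (log2 fold change 0.31, standard error 0.06, adjusted p = 0.00938 from limma). The groups did not overlap, but the 2 *rd7* libraries stood further from each other than the wild-type libraries did. It was no longer called under median-ratio scaling (0.16, adjusted p = 0.0803 from limma), without wild-type replicate 1 (0.32) and without wild-type replicate 2 (0.30), and under the GC-length correction the value was -0.0094. Of the 4032 exonic bases of *Hsp90b1*, 415 are shared with *1810014B01Rik* on the opposite strand.

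The ratio of *Hspa5* to *Hsp90b1* within a library was 0.892 and 1.01 in *rd7* and 0.703 and 0.663 in wild-type retinas, 1.39 times as high in *rd7* and without overlap. *Hspa5* was also higher relative to *Atf4*, with ratios of 0.800 and 0.852 against 0.475 and 0.437. Relative to *Xbp1* the shift was smaller, with 3.61 and 3.76 in *rd7* and 3.26 and 3.33 in wild-type libraries, a log2 difference of 0.16.

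The promoters of *Hspa5* and *Hsp90b1* are shown because both hold the ER stress response element (ERSE), the site through which ATF6 is known to act together with NF-Y. The RefSeq promoter windows (GRCm38.p6, 250 bases before and 50 after the start site) cover 9 of the 10 genes, *Atf6* being without an entry. On either strand, the letters CCAAT and CCACG with any 9 bases between them were found in 39 of 32851 windows (0.119%). *Hspa5* (chr2:34771840-34772139, plus strand) holds 1 match and *Hsp90b1* (chr10:86705395-86705694, minus strand) holds 2, and the other 7 windows of the group hold none. Each window is written 5′ to 3′ in the direction of the gene, with the matches in capitals, the second of *Hsp90b1* lying on the other strand:
Hspa5: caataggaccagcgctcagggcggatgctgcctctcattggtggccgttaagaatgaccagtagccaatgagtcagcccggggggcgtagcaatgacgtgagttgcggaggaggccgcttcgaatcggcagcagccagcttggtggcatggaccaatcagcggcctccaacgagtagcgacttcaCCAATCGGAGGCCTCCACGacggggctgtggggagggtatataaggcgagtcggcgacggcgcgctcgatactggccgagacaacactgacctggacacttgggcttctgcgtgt
Hsp90b1: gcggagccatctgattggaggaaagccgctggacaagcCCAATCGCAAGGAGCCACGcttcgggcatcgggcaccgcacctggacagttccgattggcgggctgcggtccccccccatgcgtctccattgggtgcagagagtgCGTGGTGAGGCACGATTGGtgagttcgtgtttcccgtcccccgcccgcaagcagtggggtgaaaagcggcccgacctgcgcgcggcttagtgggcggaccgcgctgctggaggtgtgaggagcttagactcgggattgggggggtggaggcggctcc

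No match was found in the 9 windows for the letters TGACGTGG (a site bound by XBP1 and ATF6, in 0.676% of all windows), ATTGG and CCACG with any 1 base between them (ERSE-II, 0.0365%) or TTGCATCA (a composite site of C/EBP and ATF4, 0.895%). These searches used exact letters in a short window, and a match is a description of the sequence.

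*Dnajb9* and *Edem1*, both known targets of XBP1, differed from each other. *Dnajb9* (ERdj4, a co-chaperone of BiP, at chr12:45306884-45311055) had an FPKM of 15.7 and 16.2 in *rd7* and 11.8 and 12.7 in wild-type libraries (log2 fold change 0.38, standard error 0.06, adjusted p = 0.00545 from limma). It was called under median-ratio scaling (0.22, adjusted p = 0.029 from limma), not without wild-type replicate 1 (0.33), and not under the GC-length correction (0.057). Its exons have a GC content of 38.3%, the lowest of the 10 genes, where the median gene tested has 50.1%. *Edem1* (a lectin of ERAD, at chr6:108778635-108809350) had an FPKM of 3.71 and 3.77 in *rd7* and 3.65 and 3.61 in wild-type libraries. These values did not overlap but lay close together (log2 fold change 0.04, 95% interval -0.15 to 0.23, adjusted p = 0.694 from limma), and the sign turned under median-ratio scaling (-0.11), quantile normalization (-0.17) and the GC-length correction (-0.24). The ratio of *Edem1* to *Dnajb9* was 0.237 and 0.233 in *rd7* and 0.308 and 0.285 in wild-type libraries, lower in *rd7* without overlap. The ratio of *Hspa5* to *Dnajb9* was 9.49 and 9.51 against 7.68 and 6.69.

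**Figure D3:**
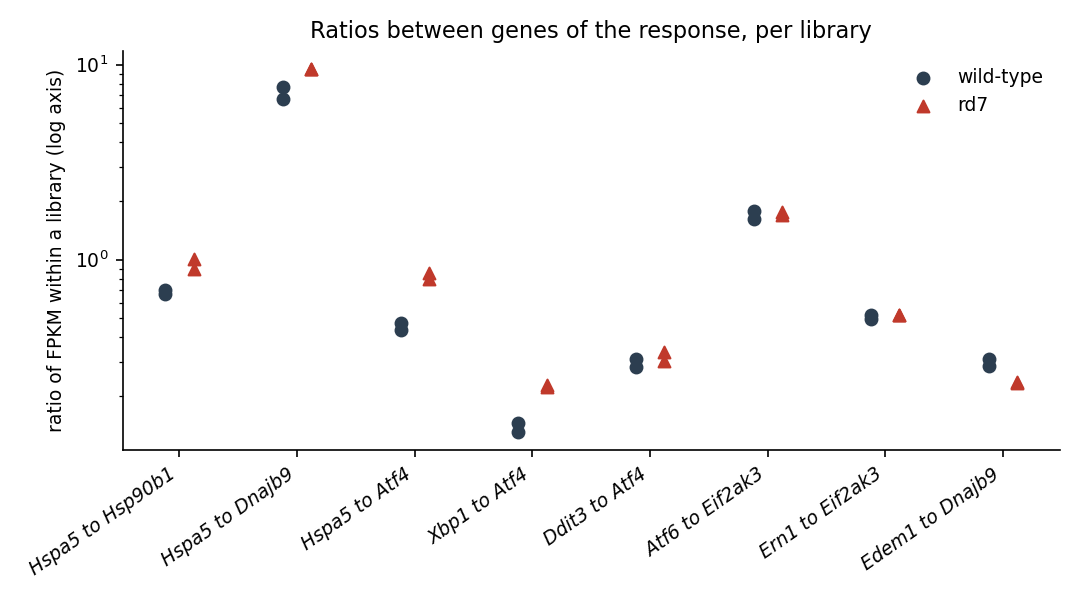
Ratios of FPKM between pairs of the genes within each library (log axis); circles are wild-type and triangles *rd7* libraries. The ratios of *Hspa5* to *Hsp90b1*, *Dnajb9* and *Atf4* and of *Xbp1* to *Atf4* are higher in *rd7*, that of *Edem1* to *Dnajb9* is lower, and the ratios among the sensors and of *Ddit3* to *Atf4* overlap.

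Other genes of the pathway were taken from 6 lists of 86 genes, named by their role. Of the 80 that were tested, 40 (50%) rose and 3 (3.75%) fell in *rd7* at an FDR of 5%, beside 37.6% and 8.80% of all genes, and their median log2 fold change was 0.22, beside 0.15. The list of ER folding enzymes and chaperones had 15 of 21 genes higher (71.4%) and 0 lower (median 0.27). Its largest rises were those of *Canx* (calnexin, a lectin chaperone), *Sdf2l1* (a partner of ERdj3) and *Pdia6* (a protein disulfide isomerase). *Canx* had an FPKM of 123 and 128 in *rd7* and 80.0 and 83.7 in wild-type libraries (log2 fold change 0.62, adjusted p = 0.00104 from limma). *Sdf2l1* had 6.14 and 6.10 against 4.07 and 4.32 (0.54), and *Pdia6* had 47.4 and 47.1 against 33.4 and 32.2 (0.52). All 3 were also called under median-ratio scaling (0.46, 0.38 and 0.37) and under the GC-length correction (0.28, 0.62 and 0.26). The count for the list was 7 higher under median-ratio scaling and 4 under the GC-length correction, where 19.7% and 12.4% of all genes were higher. It was also smaller with either wild-type library left out, as was that of all genes.

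The ERSE letters were also found in the windows of 8 of the 72 genes of the 6 lists that have a window. The matched letters are compared below, with the fixed letters in capitals and every match turned to the same strand:
Hspa5: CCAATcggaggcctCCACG
Hsp90b1, upstream match: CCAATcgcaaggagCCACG
Hsp90b1, downstream match: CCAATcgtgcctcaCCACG
Canx: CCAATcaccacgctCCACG
Pdia6: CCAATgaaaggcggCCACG
Dnajc3: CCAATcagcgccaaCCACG
Calr: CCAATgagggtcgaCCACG
Ero1lb: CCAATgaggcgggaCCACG
Syvn1: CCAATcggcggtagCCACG
Creld2: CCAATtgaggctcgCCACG
Derl3: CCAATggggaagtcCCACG

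Of the tested genes shown here, *Canx*, *Pdia6*, *Dnajc3* (log2 fold change 0.51), *Ero1lb* (0.26) and *Calr* (0.23) were called higher in *rd7* beside *Hspa5* and *Hsp90b1*, *Syvn1* (0.14) and *Creld2* (0.10) were not, and *Derl3* was not tested. *Calr* and *Ero1lb* lost their call under median-ratio scaling (0.078 and 0.11), and so did these 2 (0.035 and -0.054) and *Dnajc3* (0.18) under the GC-length correction. Across the whole table, 19 genes with a match were tested, of which 11 (57.9%) were higher and 0 lower, with a median log2 fold change of 0.34. The 9 of these that are members or genes of the 6 lists, and so were picked for the pathway, gave 7 of the 11, and of the 10 other genes 4 (40%) were higher. Of the 9843 tested genes that have a window, 37.6% were higher, with a median of 0.14. Under median-ratio scaling the medians were 0.19 and -0.01, and under the GC-length correction 0.13 and -0.03. Among the 10 others, *Xlr3a*, *Xlr3b* and *Xlr3c*, whose matches are the same letters, are related copies that can share reads. *Alg12*, also among the 10, has a window that overlaps that of *Creld2* and holds the same match, so this site counts for both classes of genes. For the other sites, 1 of 8 tested genes with ERSE-II (12.5%, median 0.10), 53 of 101 with TGACGTGG (52.5%, median 0.22) and 17 of 62 with TTGCATCA (27.4%, median 0.075) were higher. In the same order, 0, 3 and 4 were lower, beside 849 of the 9843 tested genes that have a window. Their medians were -0.052, 0.067 and -0.075 under median-ratio scaling and -0.023, 0.017 and -0.043 under the GC-length correction. The searches were added after the values of the 10 genes had been seen.

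Genes that work beside the sensors had 4 of 7 tested higher (57.1%) and 0 lower (median 0.26), where 37.6% and 8.80% of all genes were. *Ern2*, *Creb3l1*, *Creb3l3* and *Creb3l4* were under the filter on low values. *Mbtps2*, the site-2 protease that cuts ATF6 in the Golgi, had an FPKM of 6.70 and 6.05 in *rd7* and 3.61 and 3.70 in wild-type libraries (log2 fold change 0.78, adjusted p = 0.0018 from limma). *Creb3l2*, a relative of ATF6 that is cut in the same way, had 5.15 and 4.90 against 3.33 and 3.20 (0.61, adjusted p = 0.00309). Both were called under median-ratio scaling (0.63 and 0.46) and under the GC-length correction (0.38 for each). *Map3k5*, the kinase ASK1, had 3.55 and 4.02 against 3.06 and 2.86 (0.34), and lost its call under median-ratio scaling (0.19). *Mbtps1*, the site-1 protease that makes the preceding cut, had 29.2 and 29.0 against 27.5 and 28.1 and was not called (0.07). The count was 2 higher under median-ratio scaling, where 19.7% of all genes were higher. It was also smaller with either wild-type library left out, as was that of all genes.

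The ERAD list had 6 of 12 tested genes higher (50%) and 1 lower (8.33%, median 0.17). Of all genes, 37.6% were higher and 8.80% lower, with 19.7% and 19.6% under median-ratio scaling and 12.4% and 15.1% under the GC-length correction. *Edem3*, a mannosidase, had an FPKM of 15.7 and 16.1 in *rd7* and 11.4 and 12.4 in wild-type libraries (log2 fold change 0.41, adjusted p = 0.00478 from limma). *Ube2j1*, a ubiquitin-conjugating enzyme of the ER, had 40.6 and 41.3 against 30.0 and 31.5 (0.41). *Edem2* moved the other way, with 17.4 and 15.2 in *rd7* and 21.6 and 22.5 in wild-type libraries (-0.44, adjusted p = 0.00733 from limma). The 3 EDEM genes thus differed in direction, with *Edem3* higher, *Edem2* lower and *Edem1* not called. The fall of *Edem2* was called under median-ratio scaling (-0.59) and under the GC-length correction (-0.60), while the rise of *Edem3* was called with the former (0.26) and not with the latter (0.061). The counts were 2 higher and 1 lower under median-ratio scaling, 0 and 1 under the GC-length correction, 1 and 0 without wild-type replicate 1, and 2 and 0 without wild-type replicate 2.

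Of the targets of PERK and ATF4, 5 of 16 tested genes rose (31.3%) and 2 fell (12.5%, median 0.20), shares near the 37.6% and 8.80% of all genes. *Ppp1r15a* (GADD34, which directs the dephosphorylation of eIF2α) had an FPKM of 6.81 and 6.59 in *rd7* and 8.60 and 8.44 in wild-type libraries (log2 fold change -0.34, adjusted p = 0.00762 from limma). *Trib3*, a pseudokinase induced by ATF4 and CHOP, had 1.23 and 1.97 against 2.77 and 2.66 (-0.76, adjusted p = 0.033 from limma). Under median-ratio scaling both were called lower (-0.49 and -0.91), under the GC-length correction *Ppp1r15a* was (-0.38) and *Trib3* was not (-0.74), without the filter on low values *Trib3* was not called (adjusted p = 0.0973 from limma), and 0 genes of the list were called lower without wild-type replicate 1 or without wild-type replicate 2.

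The 3 largest rises called in this list were those of *Slc3a2*, *Vldlr* and *Psat1*, and *Sesn2* (log2 fold change 0.34) and *Cebpg* (0.26) were also called higher. *Slc3a2*, the heavy chain of amino acid transporters, had an FPKM of 47.4 and 47.3 in *rd7* and 34.3 and 35.7 in wild-type libraries (log2 fold change 0.44). *Vldlr*, a lipoprotein receptor, had 50.4 and 53.5 against 40.7 and 41.0 (0.35), and *Psat1*, an enzyme of serine synthesis, had 18.0 and 15.8 against 13.1 and 13.3 (0.34). *Slc3a2* was called under median-ratio scaling (0.28) and under the GC-length correction (0.35), while *Psat1* was called with neither (0.19 and 0.10) and *Vldlr* only with the former (0.19 and 0.0086). *Sesn2* was called only with the GC-length correction (0.33, and 0.19 under median-ratio scaling). *Cebpg* was called with neither (0.11 under median-ratio scaling and -0.067 under the GC-length correction). *Atf3* differed between the 2 *rd7* libraries, with 1.91 in replicate 1 and 5.20 in replicate 2 against 1.82 and 1.53 in wild-type, and was not called. The library in which it was high is the *rd7* library with the higher sum of reactive Müller cell markers, and the part of these cells was not tested. Of all genes, 19.7% were higher and 19.6% lower under median-ratio scaling, and 12.4% and 15.1% under the GC-length correction. The list had 2 genes higher and 3 lower with the former and 2 higher and 1 lower with the latter. The count of higher genes was 1 without wild-type replicate 1, 2 without wild-type replicate 2 and 9 without *rd7* replicate 1, and 4 were lower without *rd7* replicate 2.

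Among the other eIF2α kinases and the subunits of eIF2 and eIF2B, 3 of 10 genes were higher and 0 lower (median 0.12), a share (30%) below that of all genes tested. These were *Eif2s1*, eIF2α itself, with 12.7 and 12.7 FPKM in *rd7* and 10.2 and 10.6 in wild-type libraries (log2 fold change 0.28), *Eif2ak1* (0.21) and *Eif2b2* (0.20). None of the 3 was called under median-ratio scaling, where the values were 0.13, 0.052 and 0.042, and under the GC-length correction *Eif2s1* (-0.064) and *Eif2ak1* (-0.0020) turned sign. Of the protein translocation channel, its associated proteins and the signal peptidase, 7 of 14 genes were higher (50%) and 0 lower (median 0.16), beside 37.6% and 8.80% of all genes. *Spcs3*, a subunit of the signal peptidase, had an FPKM of 9.65 and 10.0 against 6.23 and 6.77 (0.59, adjusted p = 0.00245 from limma), *Ssr3* had 44.3 and 45.9 against 32.8 and 34.5 (0.42), and *Spcs1* had 57.9 and 52.3 against 43.7 and 41.8 (0.37). *Spcs3* was the only one of these called under the GC-length correction (0.24). The counts were 4 higher and 0 lower under median-ratio scaling, where 19.7% and 19.6% of all genes were. Fewer were also higher with either wild-type library left out, as among all genes. Under the GC-length correction the split turned, with 1 higher and 4 lower (*Sec61g*, *Sec62*, *Sec11a* and *Sec11c*). That of all genes turned too, with 12.4% higher and 15.1% lower.

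**Figure D4:**
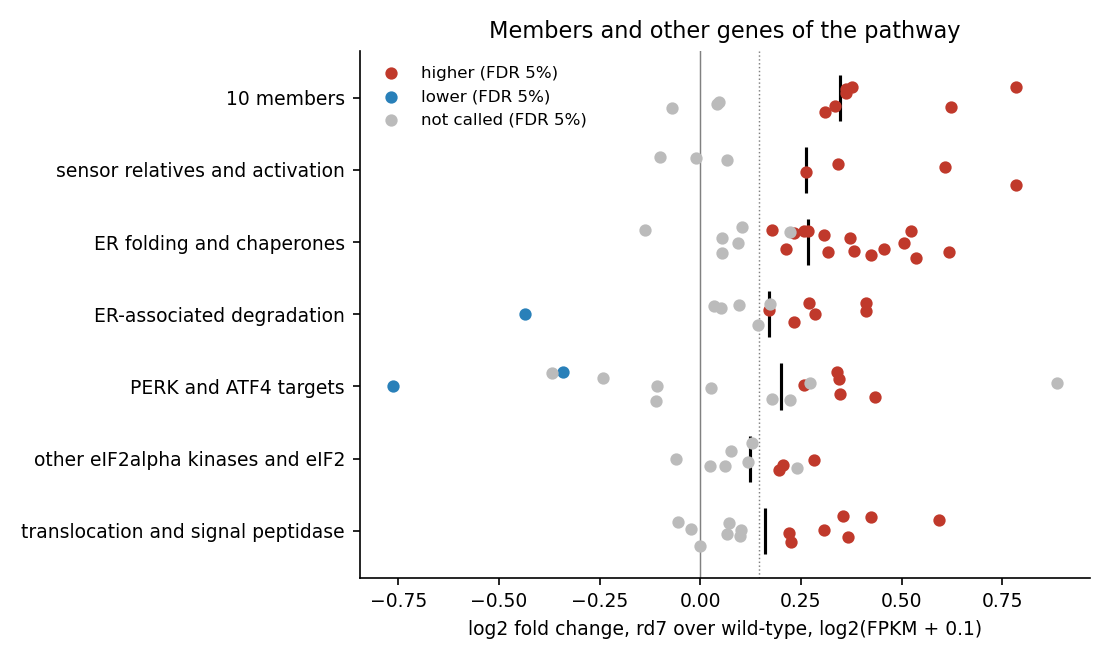
Log2 fold change, *rd7* over wild-type, of the 10 genes and of the tested genes of the 6 other lists, on the log2(FPKM + 0.1) scale; each point is a gene, red higher, blue lower and grey not called at an FDR of 5%, and black bars are list medians. Medians run from 0.12 to 0.35, and the dotted line is the median of all genes tested (0.15); the blue points are *Edem2*, *Ppp1r15a* and *Trib3*.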

How the data were processed

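Retinal polyA RNA was sequenced as single reads of 50 bp. Per the labels and methods, the authors mapped reads to mm9 with TopHat 1.4.1 and deposited FPKM per gene and library from Cufflinks 1.3.0. The annotation they used is not given in the sources used here. The deposited Cuffdiff table (FPKM pooled per genotype, fold changes, p-values and q-values) was not used. Of 22095 loci, 262 without a successful estimate in every library were left out.

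From the FPKM, log2(FPKM + 0.1) of the 12655 genes with a mean of at least 1 was compared in R 4.3.3 with the package limma 3.58.1 (moderated variances with trend, 2 *rd7* against 2 wild-type libraries, no block). Fold changes on this scale understate changes of low genes. Ratios, sums and sequence searches were computed in Python 3.11.15. Exonic length and GC content came from GENCODE M1 (NCBIM37, the assembly of mm9). Read numbers were estimated from FPKM times kb of exon in a window of 0.02 to 0.036, chosen by eye, and cover counting error only. Loci were written with the first base counted as 1.

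The members and lists were chosen with earlier results of these data known. Genes named beside the 10 are, per list, up to 3 with the largest rise and up to 3 with the largest fall among called genes whose values did not overlap between genotypes. *Mbtps1*, *Atf3*, *Sesn2*, *Cebpg*, the translocation genes lower under the GC-length correction, the genes with an ERSE match, *Xlr3a*, *Xlr3b* and *Xlr3c* were named after their values were seen. Some items that these rules name are not reported here. 1 listed gene, *Vimp*, is in the file as *H47*. Each fit was repeated with pseudocounts of 1 and 0.01, without the filter, with a minimum mean of 5, after median-ratio or quantile scaling, without trend, with replicate number as a block, at an FDR of 1% and with single libraries left out. A GC-length correction, in which splines of exonic GC content and length are removed from each library's deviations, was added after the data were examined.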

Additional observations from a re-analysis of the deposited data

How the results depend on the processing

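*Hspa5* and *Xbp1* kept their direction and call under all alternatives run, including an FDR of 1%. Under median-ratio scaling, 4 members were higher and 1 lower (median 0.19), *Ern1* (0.21), *Eif2ak3* (0.18) and *Hsp90b1* (0.16) lost their call, *Atf4* (-0.22) was called lower, and *Ddit3* (-0.11) and *Edem1* (-0.11) changed sign. With quantile normalization the median was 0.19, *Ern1* (0.17) and *Eif2ak3* (0.17) lost their call, and *Ddit3* (-0.10) and *Edem1* (-0.17) changed sign. With the GC-length correction 2 members were higher (median 0.052), *Ern1* (0.12), *Eif2ak3* (0.12), *Atf6* (0.048) and *Dnajb9* (0.057) lost their call, and *Hsp90b1* (-0.0094), *Ddit3* (-0.068) and *Edem1* (-0.24) changed sign. These 3 settings move the median of all genes from 0.15 to between -0.023 and -0.0049 by construction. *Ern1* (0.36) missed the threshold without a filter, where more genes were tested, and *Ern1* (0.36) and *Eif2ak3* (0.33) missed it at an FDR of 1%.

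With each library left out in turn, between 2 (without wild-type replicate 1) and 7 members were higher, with log2 fold changes of 0.29 to 0.44 for *Ern1*, 0.26 to 0.40 for *Eif2ak3*, 0.31 to 0.41 for *Atf6*, 0.24 to 0.38 for *Hsp90b1*, 0.33 to 0.42 for *Dnajb9* and -0.012 (without *rd7* replicate 2, a change of sign) to 0.10 for *Ddit3*. The lone library of a genotype is then assumed to vary like the other pair.

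Higher and lower genes in the lists were, under median-ratio scaling, 2 and 1 (sensor relatives), 7 and 1 (folding), 2 and 1 (ERAD), 2 and 3 (PERK and ATF4 targets), 0 and 1 (eIF2) and 4 and 0 (translocation). With quantile normalization they were, in the same order, 2 and 1, 8 and 1, 2 and 1, 2 and 3, 0 and 0, and 4 and 0. At an FDR of 1% they were 2 and 0, 9 and 0, 2 and 1, 2 and 1, 0 and 0, and 4 and 0. With the GC-length correction they were 3 and 0 (sensor relatives), 4 and 0 (folding), 0 and 1 (ERAD), 2 and 1 (PERK and ATF4 targets), 0 and 2 (eIF2) and 1 and 4 (translocation). A mean FPKM of at least 5 left 2 sensor relatives higher and 1 PERK and ATF4 target lower, as 1 was lower without a filter. With a library left out, higher genes ranged from 2 to 4 (sensor relatives), 5 to 17 (folding), 1 to 6 (ERAD), 1 to 9 (PERK and ATF4 targets), 0 to 3 (eIF2) and 2 to 7 (translocation), and lower genes from 0 to 1 (folding), 0 to 1 (ERAD) and 0 to 4 (PERK and ATF4 targets).

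Over all genes, 2492 were higher and 2479 lower under median-ratio scaling, 2350 and 2404 under quantile normalization, 1520 and 1849 under the GC-length correction, 2582 and 446 at an FDR of 1%, and 1293 to 5484 and 224 to 1601 with a library left out. With a replicate block 4508 were higher and 1091 lower, and no call of a member changed. The replicate numbers do not mark pairs in the labels, and the deviations of *rd7* replicate 1 and wild-type replicate 1 had a correlation of -0.0265 over the genes tested. The cause of these changes was not tested beyond what each setting does.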

Other observations

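3 further lists, added after the values of the 10 genes had been seen, are given as values. Of 10 genes of the cytosolic heat shock system, limma called 4 higher (40%) and 4 lower (40%) in *rd7* at an FDR of 5%, beside 37.6% and 8.80% of all genes, with a median log2 fold change of -0.04. The stress-inducible HSP70 genes *Hspa1a* (13.8 and 17.9 FPKM in *rd7*, 20.7 and 20.6 in wild-type libraries, log2 fold change -0.39) and *Hspa1b* (12.3 and 14.4 against 17.8 and 16.8, -0.38) were lower. They are near-identical copies that share reads, so their split is uncertain. *Hsp90aa1* (-0.19) and *Hsf1* (-0.20) were also called lower. *Hspa8* (701 and 731 against 521 and 533, 0.44), *Hsph1* (25.7 and 25.2 against 17.2 and 18.4, 0.51), *Hspa4* (0.32) and *Hsp90ab1* (0.28) were higher. Under median-ratio scaling *Hspa1a*, *Hspa1b*, *Hspa8* and *Hsph1* kept their calls, at -0.55, -0.53, 0.29 and 0.36. So did *Hsp90aa1* (-0.35) and *Hsf1* (-0.36), while *Hspa4* (0.17) and *Hsp90ab1* (0.12) lost theirs. With the GC-length correction *Hspa1a* (-0.39), *Hsf1* (-0.18), *Hspa4* (0.027) and *Hsp90ab1* (0.12) were no longer called. Without the filter on low values neither HSP70 copy was called (adjusted p = 0.116 and 0.0552 from limma), nor were *Hsp90aa1* and *Hsf1*.

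Of 8 mitochondrial chaperones and proteases, 2 were higher (25.0%) and 0 lower (median 0.081). Among all genes tested, 37.6% were higher and 8.80% lower (median 0.15). Of 10 tested genes of ER calcium handling, 4 were higher (40%, near the share of all genes) and 0 lower (median 0.19). *Atp2a2* (SERCA2, the pump that fills the ER with calcium) had an FPKM of 83.7 and 87.3 in *rd7* and 59.8 and 61.0 in wild-type libraries (log2 fold change 0.50, adjusted p = 0.00149 from limma). *Itpr3*, a calcium release channel, had 2.34 and 1.63 against 0.582 and 0.503. It passed the filter on low values only through the *rd7* libraries in which it was high, so no test is given for it, and 3 of the 4 higher genes remain without it. *Atp2a2* was also called under median-ratio scaling (0.35) and under the GC-length correction (0.25). The genes named here were picked after their values were seen.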
